A study of Homo sapiens with 65 samples.

Results

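Retinoic acid is a diffusible signal made from vitamin A that patterns the heart from its posterior end, where the atria form. Cells make it in successive oxidations of retinol, DHRS3 reverses the first of these, ALDH1A2 carries out the last, and the CYP26 enzymes break the product down. The acid binds nuclear receptors such as RARB, which act on target genes that include RARB itself, CYP26A1, HOX genes and the orphan receptors NR2F1 and NR2F2. NR2F2 is required for atrial identity in the mouse heart.

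The 9 genes described here, of 58735 in the deposited count table, were named in a list: NR2F1, NR2F2, ALDH1A2, CYP26A1, CYP26C1, DHRS3, RARB, MEIS2 and HOXB1. The list was chosen by a measured value, since NR2F2 had differed at day 4.5 both between HAS2-knockout and wild-type libraries and between enzyme-treated and untreated libraries. Differences between conditions at day 4.5 are therefore described below without a test.

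RNA was sequenced in 65 libraries of cardioids, heart-like aggregates patterned toward left ventricle and grown from WTC-11, an established line of human induced pluripotent cells. In the genotype experiment (41 libraries) wild-type (WT) cardioids were compared with cardioids labelled as HAS2 knockouts (KO) at days 1.5, 2.5, 4.5 and 7.5, with 5 and 6, 6 and 6, 6 and 6, and 3 and 3 libraries. HAS2 makes hyaluronan, a sugar polymer of the extracellular matrix. Among the WT libraries the lines are named WT, WT_TU, TNT2 and cl43_WT_UT, and the KO libraries carry the clone names cl4, cl14, cl46 and cl51. Clone cl4 supplied up to 3 of the KO libraries of a day, so these are not independent clones. The line WT recurs among the WT libraries of each day and WT_TU among those of days 2.5 and 4.5, so these are not independent lines either. In the enzyme experiment (24 libraries, 3 per group) untreated cardioids were compared with cardioids given hyaluronidase, which digests hyaluronan, from day 1.5 (HAse1.5) or day 2.5 (HAse2.5). Libraries were collected at days 2.5, 4.5 and 7.5, except that HAse2.5 has no day 2.5 group. Replicates 1, 2 and 3 there are the lines TNNI1, WT and TNNT2.

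Every group from day 2.5 onward had received the same medium, in which 50 nM retinoic acid was present from day 1.5 to day 3.5 together with BMP4, FGF2, insulin and the WNT inhibitor C59. Untreated and WT cardioids carry this exposure too, so no group shows these genes without added retinoic acid after day 1.5. The day 1.5 libraries come from the stage at which that medium was first given. Each library pooled 8 cardioids, and p-values measure the spread between these libraries. Total counts ranged from 831062 to 3574843 per library (median 1570954), and levels are given in CPM, the count scaled to a common library total. The libraries were made with a 3′ kit, and CPM of different genes are not compared with each other. HAS2 counts overlapped between WT and KO at every day, for example 149.6 to 481.7 CPM in WT and 286.0 to 485.5 CPM in KO at day 4.5. The labels used here do not give the deleted part, so these 3′ reads do not check the KO label. Cardiomyocyte markers (TNNT2, TNNI1, ACTN2, MYH6, MYL7, TTN and NKX2-5) were all detected in every group from day 4.5 onward, with a summed level between 5154 and 68041 CPM in single libraries.

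All 9 are protein-coding genes, placed here in GRCh38 by GENCODE 29. NR2F1 lies at chr5:93583224-93594615, NR2F2 at chr15:96325938-96340263, RARB at chr3:25174332-25597932, CYP26C1 at chr10:93060808-93069536 and CYP26A1 next to it at chr10:93073475-93077890, all on the plus strand. On the minus strand lie ALDH1A2 at chr15:57953424-58497866, DHRS3 at chr1:12567910-12617731, MEIS2 at chr15:36889204-37101299 and HOXB1 at chr17:48528526-48531001. Exons of 4 of them overlap a gene on the opposite strand (RARB, NR2F1, ALDH1A2 and MEIS2). The strand setting of the counting is not given in the sources used here, so reads of such partners cannot be told apart on that basis. Outside RARB the partners had few counts over the 65 libraries, with 65 for NR2F1-AS1 beside 415 for NR2F1, 691 for AC078909.1 beside 46974 for MEIS2, and 4 and 0 for those of ALDH1A2 beside 199.

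Direct repeats of the receptor recognition hexamer with a 5-base spacer are the best known binding sites of retinoic acid receptors. They were looked for, on both strands, as (A or G)G(G or T)TCA repeated after 1, 2 or 5 bases. Each window held the 250 bases before a RefSeq start of the 9 genes and the first bases transcribed from it. RefSeq (GRCh38.p14) gave 19 such windows for the 9 genes, and 2 held a match, both with the 5-base spacer. Of all 35116 windows of the same length, 31 (0.0883%) held a 5-base match and 91 (0.259%) any of the 3. A match describes the letters and is not evidence of binding. The 250 bases before the start are shown for these 2 windows because RARB and CYP26A1 moved in opposite directions after day 1.5, with the match in capitals.
RARB, chr3:25428013-25428262, plus strand: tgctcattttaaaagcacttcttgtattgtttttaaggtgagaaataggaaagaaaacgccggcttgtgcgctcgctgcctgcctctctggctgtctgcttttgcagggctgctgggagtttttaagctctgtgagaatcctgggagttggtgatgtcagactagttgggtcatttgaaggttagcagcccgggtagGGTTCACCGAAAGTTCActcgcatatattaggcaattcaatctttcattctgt
CYP26A1, chr10:93073643-93073892, plus strand: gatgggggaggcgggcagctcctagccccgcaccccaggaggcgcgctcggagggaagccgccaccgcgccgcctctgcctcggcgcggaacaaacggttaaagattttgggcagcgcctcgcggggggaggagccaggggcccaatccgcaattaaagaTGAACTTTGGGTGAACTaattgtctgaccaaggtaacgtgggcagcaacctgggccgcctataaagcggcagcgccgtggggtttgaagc
The RARB match lies 53 to 37 bases before the start, on the strand of the gene. The CYP26A1 match lies 90 to 74 bases before the start and reads as a direct repeat on the opposite strand.

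Between days 1.5 and 2.5 most of the 9 genes changed level, and in the same directions in WT and KO. In the genotype experiment 7 of the 9 passed the filter on low counts (CYP26C1 and HOXB1 did not), and in the enzyme experiment 6 (ALDH1A2 did not either). Within the genotype experiment ALDH1A2 passed only through KO libraries of days 2.5 and 7.5, and NR2F1 only through KO libraries of day 4.5. By edgeR's quasi-likelihood test with Benjamini-Hochberg adjustment over all genes, 6 of the 7 changed in WT, where 30.1% of all genes tested did. The same 6 changed in KO, beside 33.3% of all genes. NR2F2, ALDH1A2, DHRS3, RARB and MEIS2 rose, CYP26A1 fell, and NR2F1 did not pass the threshold.

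RARB, a receptor whose own gene is a target of retinoic acid, had no count in any of the 11 libraries of day 1.5. At day 2.5 it was between 5.86 and 19.5 CPM in the 6 WT libraries (median 11.6) and between 9.76 and 30.1 CPM in the 6 KO libraries (median 15.2). Set against a floor of 3 counts over the group, it was at least 47.6-fold higher in WT (adjusted p = 5.07e-10, edgeR) and at least 64.1-fold higher in KO (adjusted p = 6.53e-11, edgeR). TOP2B, the partner of RARB on the opposite strand, was read at 123.9 to 228.0 CPM in the day 1.5 libraries in which RARB was at 0. In those libraries no TOP2B read was thus counted as RARB.

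DHRS3, which reduces retinaldehyde back to retinol, had a median of 0.56 CPM in WT at day 1.5 (0 to 2.71) and 76.8 CPM at day 2.5 (48.2 to 156.7). Its log2 fold change was 6.01 ± 0.47 (SE, n = 5 and 6, adjusted p = 3.91e-13, edgeR) in WT. In KO it went from a median of 0.81 CPM (0 to 5.13) to 42.3 CPM (30.6 to 68.6), a log2 fold change of 4.56 ± 0.43 (adjusted p = 5.06e-11, edgeR). No day 1.5 library reached the lowest library of day 2.5.

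MEIS2 encodes a homeodomain protein that acts as a partner of HOX proteins. It rose from 0 to 8.20 CPM in WT at day 1.5 (median 2.24) to 79.0 to 327.9 CPM at day 2.5 (median 235.8). The log2 fold change was 5.93 ± 0.52 (adjusted p = 6.72e-12, edgeR) in WT and 5.04 ± 0.46 (adjusted p = 1.75e-11, edgeR) in KO. The WT groups of these days did not overlap, and neither did the KO groups.

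NR2F2 and ALDH1A2 rose from a few counts. NR2F2 had 3 counts over the 5 WT libraries of day 1.5 and 62 over the 6 of day 2.5, a ratio of rates of 20.5 (95% counting interval 6.70 to 102.2; adjusted p = 0.000105, edgeR). In KO the log2 fold change of NR2F2 was 2.81 ± 0.65 (adjusted p = 0.000716, edgeR). ALDH1A2, the enzyme that makes retinoic acid in the embryo, went from 2 counts in WT to 27, a ratio of 13.4 (95% counting interval 3.37 to 116.3; adjusted p = 0.00384, edgeR). In KO it went from 1 count to 28, a ratio of 36.4 (95% counting interval 6.01 to 1487; adjusted p = 0.000348, edgeR). In the enzyme experiment ALDH1A2 stayed between 0 and 3.41 CPM in all 24 libraries. Counting intervals cover counting error only, since reads without molecular identifiers are not independent molecules.

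CYP26A1, which oxidises retinoic acid for clearance and is itself a target gene of it, was the 1 member that fell. At day 1.5 its WT libraries stood at 88.7, 101.7, 44.4, 19.0 and 18.1 CPM, and at day 2.5 at 9.77 to 24.4 CPM (median 13.5). The 2 highest WT libraries of day 1.5 were the R1 libraries of WT and WT_TU, and the highest KO library (90.5 CPM) was the R1 library of cl4. These 3 form 1 block of consecutive library numbers. The log2 fold change was −2.11 ± 0.46 in WT (adjusted p = 0.000441, edgeR) and −2.27 ± 0.48 in KO (adjusted p = 0.000235, edgeR). The WT groups of the 2 days overlapped, and the size of the fall differed between blocks of library numbers. The WT mean went from 95.2 to 20.4 CPM in the R1 block and from 44.4 to 10.2 CPM in the R2 block. For cl43_WT_UT and TNT2, in the third block, it went from 18.5 to 13.5 CPM. From day 2.5 onward no library of the genotype experiment exceeded 29.9 CPM of CYP26A1.

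**Figure D1:**
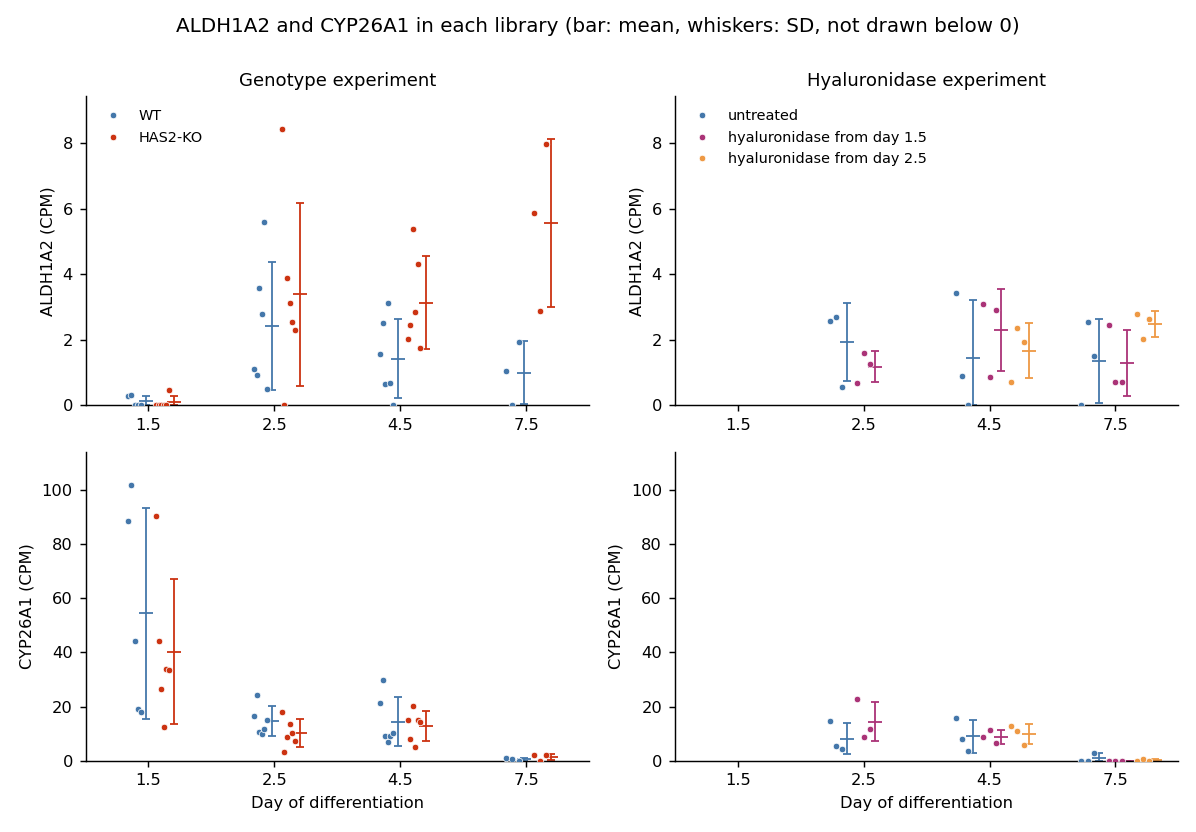
ALDH1A2 (top) and CYP26A1 (bottom) in CPM on linear axes in each library, by day, for the genotype experiment (left) and the hyaluronidase experiment (right). Points are libraries, bars group means and whiskers SD. ALDH1A2 stayed at or below 8.42 CPM in every library, and CYP26A1 was highest at day 1.5 and at most 2.97 CPM at day 7.5.

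The change of medium and of culture format also falls between days 1.5 and 2.5, so the day, the added retinoic acid and the other factors cannot be told apart. Other retinoid genes moved over the same step in WT. Of 25 further retinoid-responsive genes listed, 14 were tested, 9 rose and 1 (RARRES2, named after its value was seen) fell, where 30.1% of all genes changed, with a median log2 fold change of 2.28 beside 0.01 over all genes. Among them HOXB5, a HOX gene of the anterior trunk, rose from a mean of 0.48 to 32.2 CPM, and MEIS1, a paralogue of MEIS2, from 2.66 to 120.4 CPM. HOXB1, another HOX gene that the acid induces, had 44 counts in all 65 libraries. None of these fell on the 11 libraries of day 1.5 and 13 on WT at day 2.5, which is at least 4.30-fold higher against the same floor. Of those 13 counts, 8 were in 1 library (WT_R1, 2.94 CPM). CYP26C1, a relative of CYP26A1, had 14 counts in all and was at 0 in 56 libraries.

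From day 2.5 to day 4.5, 1 of the 6 tested members other than NR2F2 changed in WT (34.5% of all genes did), 3 of 6 in KO (30.5%) and 1 of 5 in untreated cardioids (23%). The KO calls were MEIS2, DHRS3 and NR2F1, and NR2F1 passed the filter on low counts only through KO libraries of day 4.5. MEIS2 was called in all 3 series. It reached 175.6 to 637.4 CPM in WT at day 4.5 (log2 fold change 1.03 ± 0.36, adjusted p = 0.0223, edgeR), 518.1 to 765.0 CPM in KO (1.66 ± 0.36, adjusted p = 0.000391) and 513.9 to 609.2 CPM in untreated cardioids (0.86 ± 0.28, adjusted p = 0.0294). In WT the MEIS2 call was lost without WT_R1 or WT_TU_R1 of day 2.5 and without cl43_WT_UT or TNT2 of day 4.5, with adjusted p between 0.0521 and 0.0611. In untreated cardioids it was lost without line TNNI1 of either day, without line WT of day 4.5 or without line TNNT2 of day 2.5, with adjusted p between 0.0519 and 0.135.

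NR2F2 was left out of these counts because its day 4.5 libraries are those that put it on the list. Its log2 differences were 1.19 in WT, 3.55 in KO and 1.73 in untreated cardioids, given as a description. NR2F1, the paralogue of NR2F2, stood at 0 to 2.09 CPM in KO at day 2.5 and at 4.70 to 35.0 CPM at day 4.5 (log2 fold change 3.78 ± 0.73, adjusted p = 7.10e-05, edgeR). Since those KO libraries of day 4.5 are also what let NR2F1 pass the filter, this call is a description and no separate support. In WT NR2F1 was at or below 2.79 CPM at day 2.5 and 5.20 CPM at day 4.5 (adjusted p = 0.673). DHRS3 rose in KO from 30.6 to 68.6 CPM at day 2.5 to 71.2 to 108.9 CPM at day 4.5 (log2 fold change 0.97 ± 0.31, adjusted p = 0.0145, edgeR).

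From day 4.5 to day 7.5 DHRS3 fell in all 3 series of libraries and CYP26A1 in WT and KO. DHRS3 and CYP26A1 were the members called, both lower, in WT (2 of 7, beside 2.7% of all genes) and in KO (2 of 7, beside 6.22%). In untreated cardioids DHRS3 alone was called (1 of 6, beside 6.39%). NR2F2, whose day 4.5 libraries put it on the list, is among the 7 and 6 members tested. The added retinoic acid had ended at day 3.5, and day and medium cannot be told apart here either.

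DHRS3 fell in WT from 76.4 to 111.5 CPM at day 4.5 to 32.3, 14.0 and 7.76 CPM at day 7.5 (log2 fold change −2.31 ± 0.43, adjusted p = 0.000892, edgeR). KO went from 71.2 to 108.9 CPM to 19.5, 21.9 and 18.6 CPM (−2.03 ± 0.43, adjusted p = 0.00139), and untreated cardioids from 80.5, 80.8 and 80.0 CPM to 18.7, 15.3 and 31.9 CPM (−1.74 ± 0.36, adjusted p = 0.00566). In each of the 3 the day 7.5 libraries lay below all those of day 4.5. CYP26A1 had 208 counts over the 6 WT libraries of day 4.5 and 3 over the 3 of day 7.5, a ratio of rates of 27.6 (95% counting interval 9.33 to 135.1; adjusted p = 0.00395, edgeR). In KO its log2 fold change was −3.23 ± 0.85 (adjusted p = 0.0136, edgeR). The CYP26A1 call was lost in WT without WT_TU_R2 of day 7.5 (adjusted p = 0.0546) and in KO without cl4_R2 or cl4_R3 of day 7.5 (adjusted p = 0.0502 and 0.116).

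MEIS2 and RARB did not pass the threshold over this step in WT, KO or untreated cardioids. NR2F2 is described here without a test, with means of 12.4 and 10.7 CPM in WT at days 4.5 and 7.5. Its means at these days were 69.7 and 40.7 CPM in KO and 46.1 and 40.6 CPM in untreated cardioids. RARB stood at 5.58 to 7.11 CPM in WT at day 7.5 after 4.06 to 24.8 CPM at day 4.5 (log2 fold change −1.32 ± 0.44, adjusted p = 0.115), and was called without WT_R1 of day 4.5 (adjusted p = 0.0269).

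**Figure D2:**
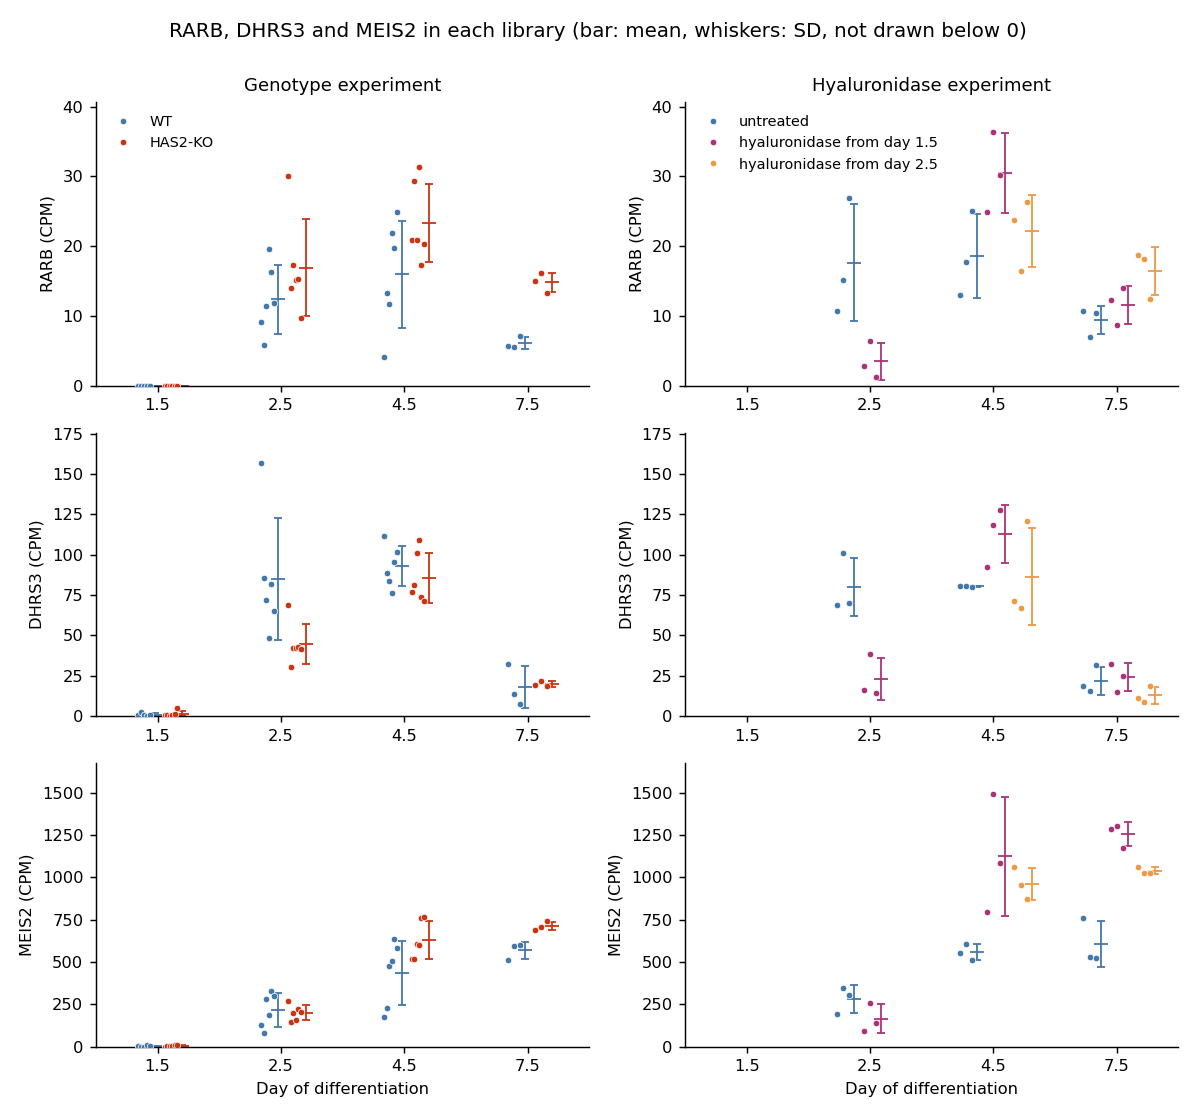
RARB, DHRS3 and MEIS2 (rows) in CPM on linear axes in each library, by day, for the genotype experiment (left) and the hyaluronidase experiment (right). Points are libraries, bars group means and whiskers SD. At day 2.5 the 3 HAse1.5 libraries lie below the 3 untreated ones for RARB and DHRS3, and at day 7.5 they lie above them for MEIS2.

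At day 2.5, after 1 day of hyaluronidase, DHRS3 and RARB were lower. These were 2 of the 6 members tested in the comparison of HAse1.5 with untreated cardioids, in which 1.15% of all genes were called. DHRS3 was at 68.9, 101.1 and 70.1 CPM in untreated replicates 1, 2 and 3 and at 16.5, 38.3 and 14.4 CPM in HAse1.5. It was lower in all 3 lines, without overlap, with a log2 fold change of −1.83 ± 0.36 (adjusted p = 0.00605, edgeR). RARB was at 10.7, 15.2 and 26.9 CPM in untreated cardioids and at 2.75, 6.39 and 1.25 CPM in HAse1.5. The groups again did not overlap and all 3 lines were lower, with a log2 fold change of −2.42 ± 0.48 (adjusted p = 0.00695, edgeR).

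These calls rest on few libraries. The DHRS3 call was lost without HAse1.5 replicate 1 (adjusted p = 0.0756) or 3 (0.0743), and the RARB call without HAse1.5 replicate 1 (0.0712) or 3 (0.0813) or untreated replicate 3 (0.106). In a fit of only these 6 libraries adjusted p was 0.0564 for DHRS3 and 0.140 for RARB. RARB had 14 counts in all over the 3 HAse1.5 libraries and 86 over the 3 untreated ones.

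MEIS2 was lower in each line after the enzyme (191.5, 349.7 and 305.6 CPM untreated, 94.7, 261.2 and 140.5 CPM in HAse1.5), but the groups overlapped and it did not pass the threshold (log2 fold change −0.80 ± 0.28, adjusted p = 0.266). Without HAse1.5 replicate 2 it did (−1.31, adjusted p = 0.00566). NR2F2 stood at 11.2, 12.5 and 14.0 CPM untreated and at 6.86, 7.99 and 9.37 CPM in HAse1.5, with no overlap and an adjusted p of 0.906 (log2 fold change −0.67 ± 0.61). CYP26A1 was higher in all 3 lines, at 22.7, 8.79 and 11.9 CPM against 14.8, 5.37 and 4.49 CPM, with an adjusted p of 0.903. HOXB1 had 5 counts in untreated libraries and 0 in HAse1.5, too few for a comparison.

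Of the 13 tested further retinoid-responsive genes 1, MEIS1, changed in HAse1.5 at day 2.5, with a list median of −1.79 beside 0 over all genes (log2 fold change). MEIS1 fell from 96.4 to 155.6 CPM to 13.0 to 63.9 CPM (log2 fold change −1.86 ± 0.35, adjusted p = 0.00452, edgeR). HOXB5 went from a mean of 94.6 to 14.1 CPM with wide spread (adjusted p = 0.285), and PBX3, another partner of HOX proteins, from 512.7 to 206.8 CPM (adjusted p = 0.0763). None of the 5 tested retinoid binding and uptake genes, 8 synthesis and storage genes or 11 receptors and cofactors passed the threshold. STRA6, the membrane receptor for retinol uptake, stood at 34.7 CPM untreated and 55.0 CPM in HAse1.5 on average. The enzyme group also differed in stage markers. Early streak markers (TBXT, MIXL1, EOMES, MESP1, MESP2 and TBX6) summed to 235.7 to 493.5 CPM in HAse1.5 and to 72.4 to 130.2 CPM in untreated cardioids, in which TBXT was at 0. Cardiomyocyte markers summed to 1261 to 1464 CPM against 2581 to 3393 CPM, with ACTN2 and MYH6 at 0 in HAse1.5. Their part in the differences of DHRS3 and RARB was not tested, and in pooled cardioids fewer cells of a type and less RNA per cell cannot be told apart.

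Between KO and WT no member was called at day 2.5 (0 of 7, beside 0.993% of all genes). In edgeR 1 member had an unadjusted p under 0.05, beside 1450 of 13797 genes, and DESeq2 called 1. That 1 was DHRS3. Its KO libraries stood at 30.6 to 68.6 CPM (median 42.3) and its WT libraries at 48.2 to 156.7 CPM (median 76.8), and 5 of the 6 KO libraries lay below every WT library. The log2 fold change was −1.002 ± 0.31, with an adjusted p of 0.128 in edgeR and 0.0297 in DESeq2. With the library-number blocks as a term in edgeR it was −0.94 (adjusted p = 0.0175). RARB, lower after the enzyme, was at 9.76 to 30.1 CPM in KO and 5.86 to 19.5 CPM in WT (log2 fold change 0.39 ± 0.32, 95% interval −0.27 to 1.05, adjusted p = 0.690).

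MEIS2 stood at 147.0 to 270.7 CPM in KO and at 79.0 to 327.9 CPM in WT at day 2.5. NR2F2 was at 3.66 to 10.6 CPM and 0.31 to 8.56 CPM. Both overlapped between the genotypes. For MEIS2 the blocks of library numbers differed in direction. KO was at 270.7 CPM against 79.0 and 130.3 CPM in WT in the first block, and at 147.0 CPM against 189.9 and 281.8 CPM in the second. In the third, KO was at 159.8 to 223.3 CPM and WT at 298.4 and 327.9 CPM. HOXB5 was the 1 of 14 tested retinoid-responsive genes that changed, with 4.5 to 11.7 CPM in KO and 8.4 to 55.1 CPM in WT (log2 fold change −2.27 ± 0.51, adjusted p = 0.0152, edgeR). Early streak markers summed to 150.9 to 238.2 CPM in KO and 54.6 to 129.6 CPM in WT, and their part in these values was not tested. At day 1.5 none of the 7 was called between KO and WT, nor was any other gene (0%; 0 members and 591 of 13797 genes at an unadjusted p under 0.05 in edgeR, and 0 members by DESeq2).

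**Figure D3:**
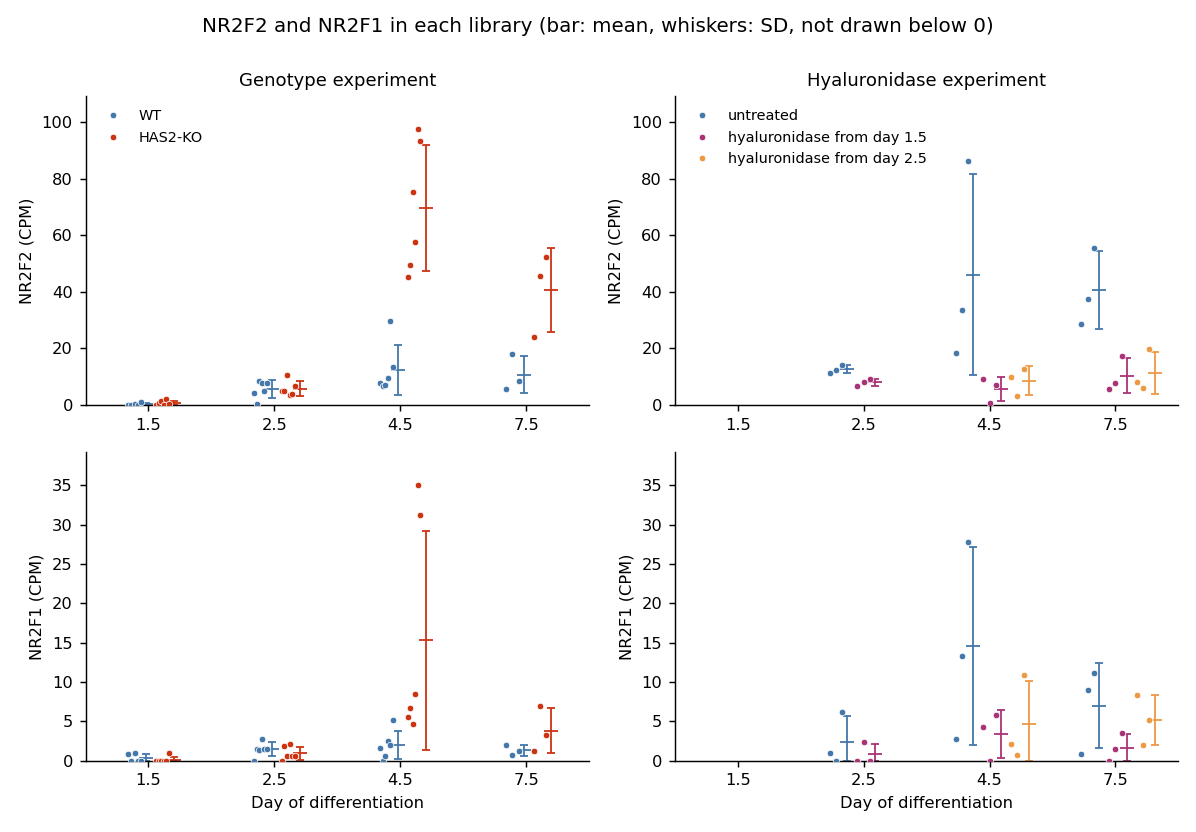
NR2F2 (top) and NR2F1 (bottom) in CPM on linear axes in each library, by day, for the genotype experiment (left) and the hyaluronidase experiment (right). Points are libraries, bars group means and whiskers SD. NR2F2 at day 4.5 lay between 45.2 and 97.5 CPM in KO, above all WT libraries, and between 0.86 and 12.8 CPM in both enzyme groups, below all untreated libraries.

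At day 4.5, where NR2F2 was picked, it stood apart in opposite directions in the 2 experiments, as the plot of NR2F2 and NR2F1 shows. In WT it was at 7.81, 6.84, 7.16, 9.39, 29.7 and 13.3 CPM (WT_R1, WT_TU_R1, WT_R2, WT_TU_R2, cl43_WT_UT and TNT2). In KO it was at 45.2, 49.5, 75.2, 57.7, 97.5 and 93.2 CPM (cl4_R1 to cl4_R3, cl14, cl46 and cl51), a log2 fold change of 2.45 ± 0.41. All 4 clones lay above all 4 WT lines. Untreated cardioids had 18.4, 33.7 and 86.2 CPM, HAse1.5 cardioids 9.31, 0.86 and 6.98 CPM, and HAse2.5 cardioids 10.1, 3.12 and 12.8 CPM. Their log2 fold changes against the same untreated libraries were −3.00 ± 0.60 and −2.40 ± 0.58. Of all genes tested, 3.74% were called between KO and WT at this day, 3.48% between HAse1.5 and untreated and 0.22% between HAse2.5 and untreated, and nothing is read from the members against these shares.

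The control libraries of the 2 experiments were not alike in NR2F2. At days 2.5, 4.5 and 7.5 untreated cardioids had 12.6 ± 1.39, 46.1 ± 35.6 and 40.6 ± 13.8 CPM (SD, n = 3), and WT cardioids 5.65 ± 3.09 (n = 6), 12.4 ± 8.80 (n = 6) and 10.7 ± 6.57 CPM (n = 3). The highest untreated library of day 4.5, line TNNT2, lay within the range of the KO libraries. This difference was not tested, since the experiments were fitted separately.

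Other members at day 4.5 are described with the same reserve. NR2F1 was at 4.70 to 35.0 CPM in KO, highest in cl46 (35.0) and cl51 (31.3), and at 0 to 5.20 CPM in WT. In the enzyme experiment it was at 2.73, 13.3 and 27.8 CPM untreated, 4.34, 0 and 5.82 CPM in HAse1.5 and 2.16, 0.78 and 10.9 CPM in HAse2.5. Without HAse2.5 replicate 3 the log2 fold change of NR2F1 in HAse2.5 went from −1.63 to −3.23. RARB, DHRS3 and MEIS2 no longer lay below untreated cardioids in HAse1.5. RARB was at 24.8, 36.3 and 30.3 CPM against 13.0, 17.8 and 25.0 CPM untreated, DHRS3 at 92.5, 118.4 and 127.5 CPM against 80.5, 80.8 and 80.0 CPM, and MEIS2 at 795.0, 1493 and 1085 CPM against 555.5, 609.2 and 513.9 CPM. Each of these 3 genes was higher in all 3 lines. CYP26A1 overlapped between conditions at this day in both experiments.

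At day 7.5 NR2F2 was lower after hyaluronidase from day 1.5 and no other member was called (1 of 6, beside 3.33% of all genes). It stood at 28.6, 37.7 and 55.6 CPM in untreated replicates 1, 2 and 3 and at 5.71, 7.91 and 17.4 CPM in HAse1.5, lower in all 3 lines and without overlap. The log2 fold change was −2.07 ± 0.57 (adjusted p = 0.0456, edgeR). The call was lost without untreated replicate 1 (adjusted p = 0.0652) or 3 (0.174) and without HAse1.5 replicate 1 (0.211) or 2 (0.165), while the log2 fold change stayed between −2.69 and −1.75 over all alternatives. In a fit of only these 6 libraries adjusted p was 0.0683.

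After hyaluronidase from day 2.5 NR2F2 was at 8.30, 6.04 and 19.6 CPM at day 7.5, again below every untreated library (log2 fold change −1.90 ± 0.56, adjusted p = 0.138, edgeR). With the line as a block, which the shared lines justify, it passed the threshold (−1.98, adjusted p = 0.0221). In the main fit 0 of 6 members were called in this comparison, beside 0.659% of all genes. In edgeR 2 members had an unadjusted p under 0.05, beside 1717 of 12748 genes, and DESeq2 called 0. Both start days share the untreated libraries. Between them no member was called at day 7.5 (0 of 6, beside 0.00784% of all genes). In edgeR 1 member had an unadjusted p under 0.05, beside 719 of 12748 genes, and DESeq2 called 0. The NR2F2 difference between start days was −0.17 (95% interval −1.42 to 1.09) on the log2 scale.

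MEIS2 lay above all untreated libraries after either start at day 7.5. Untreated cardioids had 761.1, 532.2 and 521.5 CPM, HAse1.5 cardioids 1286, 1304 and 1173 CPM, and HAse2.5 cardioids 1061, 1025 and 1028 CPM. For HAse1.5 the log2 fold change was 0.94 ± 0.28 with an adjusted p of 0.0660, and with the line as a block 0.92 with an adjusted p of 0.0451 (edgeR). For HAse2.5 it was 0.72 ± 0.28 with an adjusted p of 0.268. RARB also lay above the untreated libraries in HAse2.5, at 18.7, 18.1 and 12.4 CPM against 10.7, 7.02 and 10.4 CPM, without passing the threshold (0.76 ± 0.43, adjusted p = 0.447).

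RARB overlapped untreated cardioids at day 7.5 in HAse1.5, with 12.2, 8.63 and 13.9 CPM against 10.7, 7.02 and 10.4 CPM (log2 fold change 0.20, 95% interval −0.71 to 1.117). DHRS3 overlapped as well, with 32.6, 15.1 and 25.1 CPM against 18.7, 15.3 and 31.9 CPM (0.02, 95% interval −0.77 to 0.81). CYP26A1 had 4 counts in untreated libraries and 0 in HAse1.5, which allows no comparison. NR2F1, at 0, 1.44 and 3.49 CPM in HAse1.5 and 0.89, 8.93 and 11.1 CPM untreated, was lower in all 3 lines but did not pass the threshold (adjusted p = 0.3997).

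The change of the enzyme effect between days 2.5 and 7.5 was tested directly, and 2 of 6 members differed, beside 1.13% of all genes. The HAse1.5 effect on RARB was higher at day 7.5 by 2.63 ± 0.66 on the log2 scale (adjusted p = 0.0481, edgeR) and that on MEIS2 by 1.73 ± 0.40 (adjusted p = 0.0315). For DHRS3 the difference was 1.85 ± 0.53 (adjusted p = 0.0848 in edgeR and 0.0494 in DESeq2). The RARB call was lost without each 1 of 9 of the 12 libraries (all but untreated replicate 1 of day 2.5 and HAse1.5 replicate 2 of both days), with adjusted p from 0.0653 to 0.162. The MEIS2 call was lost without HAse1.5 replicate 1 or 3 of day 2.5, untreated replicate 2 or 3 of day 2.5, HAse1.5 replicate 1 or 2 of day 7.5 or untreated replicate 3 of day 7.5, with adjusted p from 0.0561 to 0.0822. The directions were the same without each library.

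At day 7.5 no member was called between KO and WT (0 of 7, beside 0.348% of all genes). DESeq2 called 0, and 3 members had an unadjusted p under 0.05 in edgeR, beside 763 of 13797 genes. The 3 were NR2F2, RARB and ALDH1A2. Their KO libraries lay above their WT libraries, but the share of all genes without overlap was not counted, so nothing is read from this. ALDH1A2 passed the filter on low counts only through KO libraries of days 2.5 and 7.5, so its values here are a description. NR2F2 was at 24.1, 45.5 and 52.4 CPM in KO (cl4_R2, cl4_R3 and cl14) and at 5.65, 18.1 and 8.41 CPM in WT (WT_R1, WT_R2 and WT_TU_R2), with a log2 fold change of 1.90 ± 0.59 (95% interval 0.71 to 3.10, adjusted p = 0.256). A fit of only these 6 libraries gave an adjusted p of 0.00927. RARB was at 15.0, 16.1 and 13.3 CPM in KO and 5.65, 5.58 and 7.11 CPM in WT (1.23 ± 0.49, adjusted p = 0.646). ALDH1A2 was at 5.86, 2.88 and 7.96 CPM in KO and 1.03, 0 and 1.94 CPM in WT (2.35 ± 0.94, adjusted p = 0.647), from 26 and 5 counts in all. MEIS2 was at 689.2, 707.4 and 740.7 CPM in KO and at 510.6, 594.6 and 601.3 CPM in WT, with a log2 fold change of 0.29 ± 0.50.

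The WT libraries of day 7.5 belong to earlier blocks of library numbers than most of the KO libraries. Within the 1 block that holds both, NR2F2 was at 24.1 CPM in the 1 KO library and at 8.41 and 18.1 CPM in the 2 WT libraries, and RARB at 15.0 CPM against 5.58 and 7.11 CPM. With the library-number block as a term in the fit, the log2 difference of NR2F2 at day 7.5 was 1.30 (adjusted p = 0.292, edgeR) and that of RARB 1.15 (adjusted p = 0.534). The change of the KO effect between days 2.5 and 7.5 passed the threshold for 0 of 7 members, beside 0.268% of all genes. In edgeR 1 member had an unadjusted p under 0.05, beside 850 of 13797 genes, and DESeq2 called 0. For NR2F2 the change of the KO effect was 1.80 ± 0.76 on the log2 scale (adjusted p = 0.642).

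**Figure D4:**
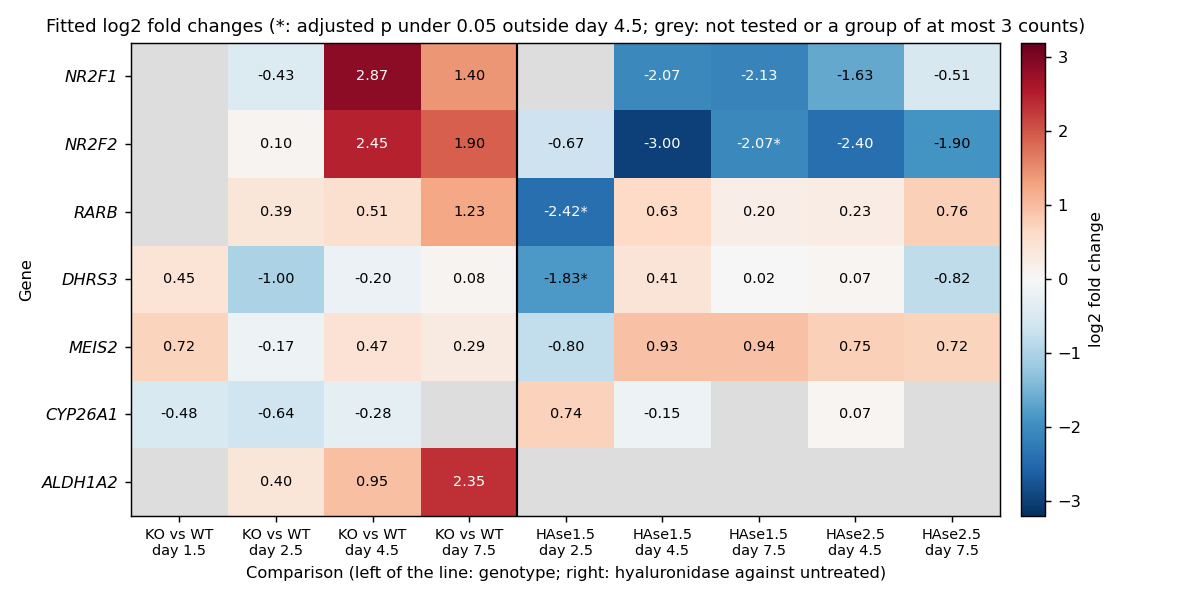
Fitted log2 fold changes of 7 genes (rows) in 9 comparisons of conditions (columns), red for higher and blue for lower. A star marks an adjusted p under 0.05 outside day 4.5, and grey cells were not tested or had a group of at most 3 counts. Among the starred cells, NR2F2 fell in HAse1.5 at day 7.5 and RARB and DHRS3 fell in HAse1.5 at day 2.5.

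Genes of atrial and ventricular muscle were read beside NR2F2. Of 17 listed atrial genes 13 were tested in the genotype experiment and 10 in the enzyme experiment. At day 2.5 TBX5, MYL4 and MYL7 were lower in KO (3 of 13, beside 0.993% of all genes, list median −0.27 beside 0.01 over all genes), and at day 7.5 none of the 13 was called (0.348% of all genes were, list median −0.34). In HAse1.5 at day 2.5 2 of 10 were lower (beside 1.15% of all genes, list median −0.63 beside 0). They were TBX5, from a mean of 50.3 to 3.94 CPM (log2 fold change −3.74 ± 0.43, adjusted p = 2.70e-05, edgeR), and MYL4, an atrial myosin light chain, from 119.0 to 17.8 CPM (−2.80 ± 0.58, adjusted p = 0.0175). In HAse1.5 at day 7.5 3 of 10 were lower (beside 3.33% of all genes, list median −1.29 beside 0.02). NPPA, the atrial natriuretic peptide gene, went from 72.1 to 399.1 CPM untreated to 0.7 to 2.4 CPM (log2 fold change −7.77 ± 1.73, adjusted p = 0.0215, edgeR). MYL7, the atrial myosin light chain, went from a mean of 9307 to 1078 CPM (−3.22 ± 0.70, adjusted p = 0.0140), and TBX5, a transcription factor of atria and left ventricle, from 248.0 to 102.4 CPM (−1.39 ± 0.30, adjusted p = 0.00882). In HAse2.5 at day 7.5 these 3 genes and MYL4 did not pass the threshold (adjusted p from 0.409 to 0.692, edgeR). Their means there were 131.0 CPM for NPPA, 4030 CPM for MYL7, 190.6 CPM for TBX5 and 2104 CPM for MYL4. Untreated means were 266.2, 9307, 248.0 and 3127 CPM. NPPA and MYL7 are also made by the early ventricle.

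Of the 12 tested ventricular genes, 1 rose and 1 fell in HAse1.5 at day 7.5 (beside 3.33% of all genes called, list median −0.41). IRX5 rose from 32.2 to 142.4 CPM (log2 fold change 2.00 ± 0.35, adjusted p = 0.00198, edgeR), and MYH7, the slow myosin heavy chain, fell from 132.6 to 19.3 CPM (−2.89 ± 0.52, adjusted p = 0.00403). The same pair was called in HAse2.5 (2 of 12, beside 0.659% of all genes), at 1.86 ± 0.35 for IRX5 (adjusted p = 0.0153) and −2.37 ± 0.51 for MYH7 (adjusted p = 0.0385). At day 2.5 1 of the 12, LBH, was higher in HAse1.5 (beside 1.15% of all genes), at a mean of 80.9 CPM against 29.1 CPM untreated (1.43 ± 0.27, adjusted p = 0.00359). Cardiomyocyte markers as a whole were at 29532 to 33250 CPM in HAse1.5 and at 58827 to 68041 CPM untreated at day 7.5. NR2F2 is also made outside muscle, in epicardium, veins and mesenchyme. Epicardial markers (WT1, TBX18, TCF21, ALDH1A2, BNC1 and UPK3B) summed to 5.4 to 31.2 CPM untreated and 1.4 to 4.1 CPM in HAse1.5 at day 7.5, with UPK3B at 0 untreated and TBX18, BNC1 and UPK3B at 0 in HAse1.5. They summed to 5.2 to 9.3 CPM in KO and 0 to 3.2 CPM in WT at that day, with TBX18 and UPK3B at 0 in KO and WT1, TBX18 and TCF21 at 0 in WT. These sums include ALDH1A2, whose own values at that day are given above. Endothelial markers (PECAM1, CDH5, TEK, KDR, SOX18 and ERG) overlapped, at 135.3 to 286.9 CPM in HAse1.5 and 149.0 to 242.5 CPM untreated. Stromal markers (COL1A1, COL1A2, COL3A1, POSTN, DCN and TCF21) did too, at 771.8 to 1205 CPM and 392.6 to 1213 CPM. The part of these cells in the NR2F2 differences was not tested.

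Few of the further retinoid genes were called at day 7.5. In HAse1.5 TGM2, a retinoid-responsive gene named here after its value was seen, fell (log2 fold change −1.30 ± 0.36, adjusted p = 0.0428, edgeR). The median of the 13 tested retinoid-responsive genes was 0.51 beside 0.02 over all genes. The 5 binding and uptake, 8 synthesis and storage and 11 receptor genes held no call. CRABP2, which carries retinoic acid to its receptors, stood at 26.5 to 411.6 CPM in HAse1.5 and 16.3 to 56.8 CPM untreated (2.47 ± 0.75, adjusted p = 0.0823). STRA6 stood at 18.7 to 43.2 CPM and 8.9 to 14.7 CPM (1.42 ± 0.42, adjusted p = 0.0577), without overlap. In HAse2.5 PBX3 rose from a mean of 435.0 to 1611 CPM (1.83 ± 0.36, adjusted p = 0.0199). Between KO and WT at day 7.5 none of the tested genes of these lists was called.

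The genes whose group means followed a member most closely were sought over the 16 groups, among 11607 genes of at least 5 CPM on average, as Pearson correlation of log2 CPM. For NR2F2 these were ICA1L (r = 0.898), ATXN7L1 (0.879) and SLC4A4 (0.877). CYP26A1 was followed by FZD7 (0.934), a WNT receptor, LIN28A (0.928), an RNA-binding protein of stem cells, and ESYT1 (0.926). The closest to ALDH1A2 were CUTALP (0.866), PCF11-AS1 (0.815) and CBLB (0.814), at a level of ALDH1A2 of a few counts. The groups share lines, days and library blocks, and these values are descriptions of 16 points.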

How the data were processed

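The authors deposited 1 table of read counts per gene for 3′ QuantSeq (FWD) libraries, made per the submitters' processing notes with featureCounts (Subread 1.6.2) on GRCh38 (hg38). The aligner, the strand setting and the treatment of reads with several matches are not given in the sources used here. A further 4 columns of the table belong to no listed sample and were not used. CPM were computed here as counts over the library total.

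The 9 genes and all gene lists were chosen with earlier results of these data known. Each experiment was fitted once over all its libraries with edgeR 4.0.16 in R 4.3.3, with 1 mean per group, filterByExpr (minimum count 10), TMM scaling, the robust quasi-likelihood test and Benjamini-Hochberg adjustment over 13797 or 12748 genes (threshold 0.05). Scripts were tested on simulated data. A group of 0 counts was set to a floor of 3 counts over the group, and intervals and floors cover counting error only. Total counts of 831062 to 3574843 per library leave ALDH1A2, CYP26C1, HOXB1 and NR2F1 at a few counts in many libraries.

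From each list at most 4 genes were named, those of smallest adjusted p between conditions at days 2.5 and 7.5 or, with none called, the most abundant. The result of 1 listed gene is not reported here. Genes most like a member were those of highest Pearson correlation of group-mean log2 CPM among genes of at least 5 CPM. Alternatives were RLE size factors, no filter, DESeq2 1.42.0, only the groups compared, blocks, sums per line and leaving out each library. In the enzyme experiment the replicate number is the cell line, which pairs the samples. Deviations of same-line libraries of a day correlated above 0.1 in 15 of 21 pairs (−0.102 to 0.467, median 0.212). In the genotype experiment numbers shared within a block and day did so in 9 of 13 pairs (−0.0742 to 0.787, median 0.249). Names shared across days did so in 38 of 51 (−0.158 to 0.720, median 0.152). The main fit used no block in either experiment although these deviations were partly shared, and blocks were run as alternatives.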

Additional observations from a re-analysis of the deposited data

Results flagged for a closer look

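Among 38 checks of the highest and lowest library in groups of 5 or 6, 7 found a library far from the others. In normally distributed values chance flags about 1 in 20. That rate need not hold for CPM, least of all in groups of few counts such as those of HOXB1, so no surplus over chance is read here. NR2F2 in WT at day 4.5 was at 29.7 CPM in cl43_WT_UT, with the next library at 13.3 CPM. DHRS3 in KO at day 1.5 was at 5.13 CPM in cl51_R1, with the next at 1.496 CPM. DHRS3 in WT at day 2.5 was at 156.7 CPM in WT_R1, with the next at 85.8 CPM. DHRS3 in KO at day 2.5 was at 68.6 CPM in cl4_R1, with the next at 42.7 CPM, and RARB in the same library was at 30.1 CPM, with the next at 17.2 CPM. HOXB1 in WT at day 2.5 was at 2.94 CPM in WT_R1, with the next at 0.93 CPM. HOXB1 in WT at day 4.5 was at 1.80 CPM in WT_TU_R1 and at 0 in the other 5 libraries.

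The effect of hyaluronidase from day 1.5 differed between days 7.5 and 2.5 for RARB by 2.63 and for MEIS2 by 1.73 on the log2 scale, by a test of the difference in edgeR (adjusted p = 0.0481 and 0.0315).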

How the results depend on the processing

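No result changed direction past its threshold under any alternative run. Without 1 library at a time, the number of members called ranged from 0 to 3 for HAse1.5 at day 2.5 and 0 to 1 for HAse1.5 at day 7.5. Between days 2.5 and 4.5 it was 0 to 1 for WT and for untreated cardioids, with NR2F2 left out. Between days 4.5 and 7.5 it was 1 to 3 for WT and 1 to 2 for KO and untreated cardioids. For the change of the HAse1.5 effect it was 0 to 3. With only the groups compared, 0 members were called in HAse1.5 at day 2.5, HAse1.5 at day 7.5, WT between days 2.5 and 4.5 and the change of the HAse1.5 effect, and 1 (NR2F2) in KO at day 7.5. DESeq2 called 1 member in KO at day 2.5, 2 in HAse1.5 at day 7.5, 2 in untreated cardioids between days 4.5 and 7.5 and 3, with DHRS3, for the change of the HAse1.5 effect. With no filter on low counts, 2 were called in HAse1.5 and in HAse2.5 at day 7.5, 2 in untreated cardioids between days 4.5 and 7.5 and 0 in WT between days 2.5 and 4.5, and calls were gained for MEIS2 in HAse1.5 at day 2.5 (adjusted p = 0.00382), NR2F1 in untreated cardioids between days 2.5 and 4.5 (0.0187) and DHRS3 for the change of the HAse1.5 effect (0.00200). Counts between days 2.5 and 4.5 here leave NR2F2 out, and between days 4.5 and 7.5 NR2F2 was not called under any alternative. RLE size factors left 1 for the change of the HAse1.5 effect. The cause of these changes was not tested.

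With the line as a replicate block, 2 members were called in HAse1.5 and 1 in HAse2.5 at day 7.5, and no other call of a member changed. With library numbers as a replicate block, 1 (DHRS3, log2 fold change −0.94, adjusted p = 0.0175) was called in KO at day 2.5. In the third block alone 1 was called there too (MEIS2, lower in KO, log2 fold change −0.70, adjusted p = 0.0435, edgeR). The day 4.5 difference of CYP26A1 was 0.44 for KO in that block alone and 0.56 for HAse1.5 without untreated replicate 1, and that of NR2F1 between the start days 1.15 without HAse2.5 replicate 3.

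Counts over all genes moved more than 1.5-fold in several comparisons. KO at day 2.5 gave 137 called genes, 223 by DESeq2 and 292 with the block, and KO at day 7.5 gave 48, 193 with only its groups and 115 with the block. HAse1.5 at day 2.5 gave 146, 290 unfiltered, 238 by DESeq2, 90 with only its groups and 228 with the block, and at day 7.5 425, 713 unfiltered and 173 with only its groups. HAse2.5 at day 7.5 gave 84, 354 unfiltered, 193 by DESeq2, 7 with only its groups and 132 with the block. The change of the HAse1.5 effect gave 144, 445 unfiltered, 302 by DESeq2, 69 with only its groups and 263 with the block. Untreated cardioids between days 4.5 and 7.5 gave 814, 1279 unfiltered and 401 with only their groups, WT over that step 372, 222 unfiltered, 192 with only its groups and 752 with the block, and KO 858 and 1451 with only its groups. Without 1 library at a time the counts were 66 (without WT_R1 of day 2.5) to 146 for KO at day 2.5, 27 (without cl14_R1) to 40 for KO at day 7.5, 61 to 225 (without HAse1.5 replicate 1 and 2) for HAse1.5 at day 2.5, 145 to 675 (HAse1.5 replicate 1, untreated replicate 2) for HAse1.5 and 3 to 377 (HAse2.5 replicate 3, untreated replicate 2) for HAse2.5 at day 7.5, 62 to 259 (HAse1.5 replicate 1 of day 2.5, untreated replicate 2 of day 7.5) for the change of the HAse1.5 effect, and 276 to 1957 (replicates 1 and 2 of day 7.5) for untreated cardioids, 138 (without WT_TU_R2 of day 7.5) to 382 for WT and 448 (without cl4_R2 of day 7.5) to 903 for KO between days 4.5 and 7.5. Depth limits ALDH1A2, CYP26C1, HOXB1 and NR2F1, whose groups often hold few counts.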
